A study of Rattus norvegicus with 6 samples.

Results

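The acute phase proteins described here are 10 plasma proteins encoded by genes that the liver transcribes: Crp, Apcs, Hp, Hpx, Cp, Itih4, Saa4, Orm1, Lbp and Lcn2. They were found on the array through the RefSeq accession of each probe, which gave 17 probes for the 10 genes, out of 15284 gene symbols matched in all. Crp, Hp, Itih4, Cp and Saa4 had several probes and the other 5 genes had 1. All 17 probes were well above background on all 6 arrays, and none was saturated.

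Total RNA came from whole liver of male Sprague-Dawley (Crl:CD(SD)) rats bought at 5 weeks of age, which shared one basal diet. One group of 3 rats received corn oil alone, and the other group of 3 rats was dosed with bromodichloromethane, 200 mg/kg/day. This compound is one of the halogenated methanes left in tap water by chlorine disinfection. The labels give both 9 weeks of administration and a measurement at 28 days, and which of these holds is not settled here; the age at sampling is not given. Each rat had its own 1-colour array, on which fluorescence stands for the amount of a transcript. The study's labels describe the animals as separate, so the errors below are spread between animals.

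The signal below which 75% of an array's probes lay is called its 75th percentile. It was 670.1 to 758 intensity units in corn oil rats and 747 to 825 in treated rats. The share of probes well above background was 61.3% to 63.9% in corn oil rats and 65.3% to 66.9% in treated rats, without overlap. Arrays correlated at 0.989 to 0.994 within a group and at 0.981 to 0.985 between groups, across probes. Levels are given as normalised signal, which is the processed signal of a probe divided by that 75th percentile. The level of one probe cannot be set against that of another, so levels are compared only between animals. All 3 corn oil arrays and the array of treated rat 1 lay on slide 1, and those of treated rats 2 and 3 lay on slide 2, which leaves only treated rat 1 for a comparison within a slide. Of 28995 features tested in the whole table with limma, 2715 (9.36%) passed an adjusted p of 0.05, 1727 (5.96%) higher and 988 (3.41%) lower in the treated rats.

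In the acute phase response, cytokines released at a site of injury or infection change which plasma proteins hepatocytes make. Interleukin 6 and related cytokines act through the shared receptor chain gp130 and the factor STAT3, while interleukin 1 and tumour necrosis factor act through NF-kappa B and C/EBP factors. The products bind microbial surfaces, haemoglobin, haem, metals and proteases, and several are also made by the unstimulated liver.

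Promoters of 7 of the 10 genes were taken from a RefSeq table of rat assembly GRCr8, a later build than the rn4 of the array design. The 250 bases upstream of the start are shown for the pentraxins Apcs and Crp, for Itih4 and for Lcn2, because the first 3 had lower treated levels and Lcn2 had higher ones, with no overlap between groups. Capitals mark matches to the motifs searched.
Apcs (chr13:87906509-87906758, minus strand): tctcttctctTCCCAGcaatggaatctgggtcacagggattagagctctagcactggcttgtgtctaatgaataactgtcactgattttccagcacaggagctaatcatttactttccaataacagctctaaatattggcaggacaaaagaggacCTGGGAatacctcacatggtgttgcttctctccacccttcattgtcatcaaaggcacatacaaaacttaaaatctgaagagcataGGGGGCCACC
Crp (chr13:87693812-87694061, plus strand): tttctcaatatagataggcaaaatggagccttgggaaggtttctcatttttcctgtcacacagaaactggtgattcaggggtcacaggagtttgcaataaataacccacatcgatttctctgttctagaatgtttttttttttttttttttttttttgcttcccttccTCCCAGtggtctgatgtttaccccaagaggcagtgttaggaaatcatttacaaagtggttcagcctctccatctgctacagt
Itih4 (chr16:6086735-6086984, plus strand): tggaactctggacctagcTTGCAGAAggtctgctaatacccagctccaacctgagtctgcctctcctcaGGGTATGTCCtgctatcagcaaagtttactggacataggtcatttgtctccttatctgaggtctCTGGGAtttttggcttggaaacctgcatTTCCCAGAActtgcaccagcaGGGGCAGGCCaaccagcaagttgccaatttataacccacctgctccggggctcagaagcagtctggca
Lcn2 (chr3:36081781-36082030, minus strand): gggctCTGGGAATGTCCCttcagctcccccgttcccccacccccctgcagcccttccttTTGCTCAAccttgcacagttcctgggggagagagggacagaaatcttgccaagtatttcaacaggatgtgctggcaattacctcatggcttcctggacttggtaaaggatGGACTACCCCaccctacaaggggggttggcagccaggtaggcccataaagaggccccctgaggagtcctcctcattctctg

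The motifs were searched on both strands as letters alone. CTGGGA, the core of the classical type 2 acute phase element, was found in Apcs, Crp, Itih4 and Lcn2, which is 4 of the 7 promoters, against 25.7% of 33469 rat promoters of the same length. TTCNNNGAA, the spaced palindrome bound by STAT factors, was found only in Itih4 among the 7, where it overlaps a CTGGGA on the other strand, and in 7.67% of all promoters. TTGCNNAA, a C/EBP core, was found in 5 of 7 (Hpx, Cp, Lcn2, Orm1 and Itih4), against 9.22%. A kappa B core, GGG and CC separated by 5 bases, was found in Lcn2, Orm1, Apcs and Itih4, against 42.3%, and in Lcn2 it overlaps the CTGGGA. The HNF1 motif, GTTAAT and TTAAC separated by 2 bases, was in 1 of the 33469 promoters, and the HNF4 motif CAAAGTCCA in 0.338%. Both matched none of the 7. As letters they are so rare that finding none among 7 promoters carries no information. These matches describe letters and not binding.

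Among the 10 genes, 1 (Apcs) passed the test as lower and 0 as higher, and 9 did not pass. The share of all features called lower was 3.41% and of all called higher 5.96%, so 1 gene in 10 is not read as a result about the group; 5 of the 10 had an unadjusted p under 0.05, against 27.5% of all features. The fitted difference was below 0 for 7 genes and above 0 for Lcn2, Orm1 and Lbp, with a median of -0.24 on the log2 scale beside 0.00 over all features. That median was 0.24 when arrays were scaled on spiked-in transcripts, which moved the median of all features to 0.48, so that the members lay 0.24 below it as before. With quantile normalization the members' median was 0.00. The groups did not overlap in 5 of 10 genes, against 34.4% of all features: Crp, Apcs, Itih4 and Saa4 were lower in every treated rat (16.0% of features), and Lcn2 was higher (18.4% of features).

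**Figure D1:**
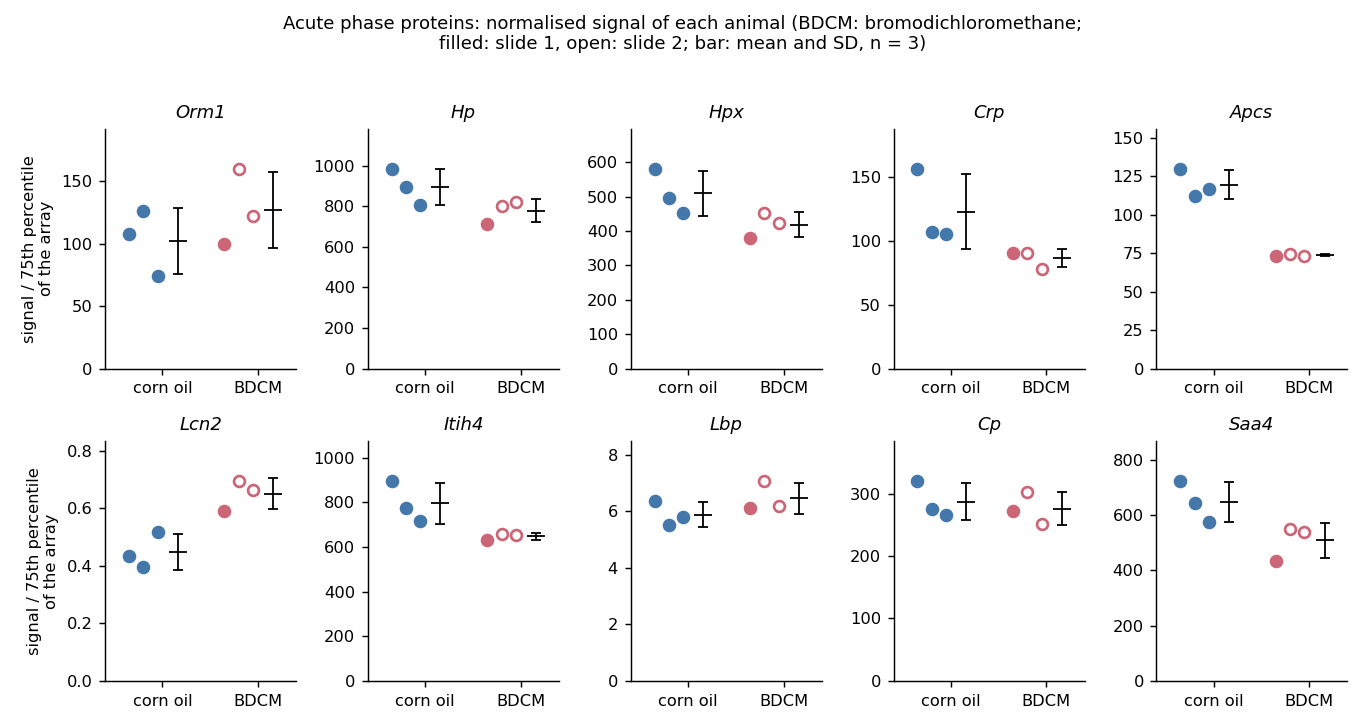
Normalised signal (processed signal over the array's 75th percentile, linear axes from 0) of each of the 10 acute phase genes in every rat, with the corn oil group beside the bromodichloromethane (BDCM) group. Points are single animals, filled for slide 1 and open for slide 2, and bars give the mean and SD (n = 3); Apcs lay at 112 to 129.9 in corn oil rats and 72.9 to 74.3 in treated rats, and Lcn2 at 0.395 to 0.517 and 0.591 to 0.695, and under spike-in scaling Cp, Hp, Hpx, Itih4 and Saa4 changed sign.

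Of the 10 genes, the pentraxins Apcs and Crp had the lowest fitted differences, and only Apcs passed the test. Apcs encodes serum amyloid P component, a ring-shaped pentraxin that binds amyloid fibrils, chromatin and microbial surfaces. Its normalised signal was 129.9, 112 and 116 in corn oil rats 1, 2 and 3, and 72.9, 74.3 and 73.4 in treated rats 1, 2 and 3. Every treated rat lay below every corn oil rat, and the treated rats lay close together. The means were 120 ± 9.22 and 73.5 ± 0.700 (SD, n = 3 each), which is 1.62-fold lower (log2 difference -0.70, SE 0.09, interval at 95% from -0.92 to -0.48, limma adjusted p = 0.014). In whole tissue, fewer cells of a type and less RNA per cell cannot be told apart. The difference was -0.71 with slide as a block (limma adjusted p = 0.078), on slide 1 alone, which holds 1 treated array (0.16), and without treated rat 2 (0.065). It was -0.21 with spike-in scaling (adjusted p = 0.27).

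Crp encodes C-reactive protein, the pentraxin that binds phosphocholine and activates complement. Its signal was 157, 107.2 and 105 in the corn oil rats and 90.5, 90.3 and 78.1 in the treated rats. Corn oil rat 1 stood far above the other two of its group, and the groups did not overlap. The difference was -0.49 (SE 0.18, interval from -0.92 to -0.06) and did not pass the test (limma adjusted p = 0.14). It was -0.0057 under spike-in scaling. The second Crp probe gave -0.43 (SE 0.14, adjusted p = 0.11).

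The carriers of haemoglobin, haem and copper did not pass the test. Hp encodes haptoglobin, which captures free haemoglobin. Its signal was 985, 893 and 808 in the corn oil rats and 712, 799 and 818 in the treated rats, so treated rat 3 lay within the corn oil range. The difference was -0.20 (SE 0.11, interval from -0.47 to 0.07, limma adjusted p = 0.29).

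Hpx encodes hemopexin, which binds free haem and delivers it to the liver. Its signal was 582, 496 and 452 in the corn oil rats and 379.7, 453 and 423 in the treated rats, and treated rat 2 lay just above corn oil rat 3. The difference was -0.28 (SE 0.13, interval from -0.59 to 0.03, limma adjusted p = 0.22). The fitted differences of both Hp and Hpx changed sign under quantile normalization (0.03 and 0.01) and under spike-in scaling (0.28 and 0.20).

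Cp encodes ceruloplasmin, the plasma copper protein that oxidises iron. Its signal was 320.4, 275 and 265 in the corn oil rats and 273, 303 and 251 in the treated rats. The ranges overlapped, and the difference was -0.06 (SE 0.12, interval from -0.35 to 0.23, limma adjusted p = 0.79). The other 3 probes of Cp gave 0.03, -0.06 and 0.01, with adjusted p from 0.81 to 0.96. That interval leaves room for a change of up to 0.35 on the log2 scale.

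Itih4 and Saa4 were lower in every treated rat but did not pass the test at their brighter probe. Itih4 belongs to the inter-alpha-trypsin inhibitor heavy chain family of plasma proteins. Its brighter probe gave 897, 776 and 718 in the corn oil rats and 630.1, 658 and 655 in the treated rats. These groups did not overlap, and the difference was -0.29 (SE 0.11, interval from -0.55 to -0.03, limma adjusted p = 0.14), or 0.19 under spike-in scaling. A dimmer Itih4 probe gave 242, 214 and 185 against 150.1, 154 and 144, a difference of -0.51 (SE 0.12, limma adjusted p = 0.052).

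Saa4 encodes the constitutive serum amyloid A, an apolipoprotein of high-density lipoprotein. Its brighter probe gave 724, 643 and 576 in the corn oil rats and 435, 549.6 and 541 in the treated rats. The groups did not overlap, though only corn oil rat 3 and treated rats 2 and 3 lay close, and the difference was -0.35 (SE 0.14, interval from -0.68 to -0.02, limma adjusted p = 0.16). It was 0.13 under spike-in scaling. The dimmer Saa4 probe gave 63.6, 58.5 and 53.0 against 35.0, 44.2 and 37.9. Fitted among all 39027 probes, it passed with a difference of -0.58 (SE 0.12, limma adjusted p = 0.042).

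In that fit of every probe, 2 of the 17 member probes passed as lower, those of Apcs and the dimmer one of Saa4, against 3.09% of all probes called lower. For Hp, Itih4 and Saa4 the dimmer probe had the larger difference, and the brighter probe lay nearer the top of the scanner's range. The highest signal of the brighter Saa4 probe was 60.3% of the saturation value and of the dimmer 5.15%; for Itih4 these were 73.8% and 21.3%, and for Hp 84.5% and 73.0%. The dimmer Hp probe gave -0.28 (SE 0.11, adjusted p = 0.16). For Crp the order was the other way, with the dimmer probe at 1.77% and the brighter at 14.4% of saturation. Whether the probes of a gene differ in response was not tested.

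**Figure D2:**
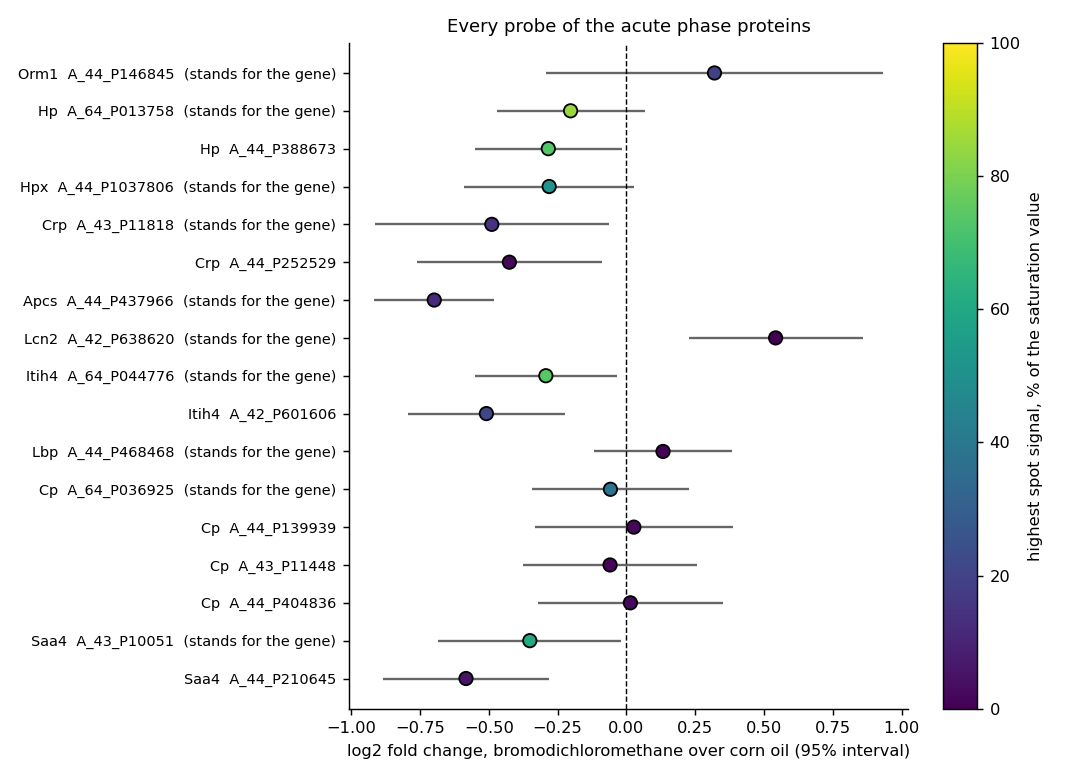
Log2 difference between treated and corn oil rats (horizontal axis) for each of the 17 member probes, with 95% intervals from limma as lines; the colour of a point is the probe's highest spot signal as a percentage of the saturation value. The dimmer Saa4 probe, at 5.15% of saturation, lay at -0.58 and the brighter, at 60.3%, at -0.35.

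The remaining 3 genes had fitted differences above 0, and none passed the test. Lcn2 encodes lipocalin 2, which withholds iron from bacteria by binding their siderophores. Its signal was 0.432, 0.395 and 0.517 in the corn oil rats and 0.591, 0.695 and 0.664 in the treated rats. Every treated rat lay above every corn oil rat, by 1.46-fold on average (difference 0.54, SE 0.13, interval from 0.23 to 0.86), and the limma adjusted p was 0.054. It passed with median centring (0.60, limma adjusted p = 0.048) and with normexp background correction (0.46, adjusted p = 0.039). With spike-in scaling, where 44.8% of all features passed, it also did (1.03, adjusted p = 0.0088). It did not pass with slide as a block (0.41, adjusted p = 0.28), on slide 1 alone (0.41, 0.39), with the replicate block (0.10), without a filter (0.087) or without any 1 animal (0.054 to 0.17). The probe was dim, at 0.0702% of saturation at most.

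Neutrophils also make Lcn2, so their markers are given beside it. Of 8 neutrophil markers, 7 were on the array and 4 were measured. Of these, 0 passed the limma test, against 9.36% of all features, and 2 had an unadjusted p under 0.05, against 27.5%. The summed normalised signal of the 4 was 1.47 to 1.89 in corn oil rats and 2.09 to 2.54 in treated rats. Such sums, here and below, are weighted to the brightest probes of a list and compare animals only. S100a9, the brightest of the 4, averaged 0.783 in corn oil rats and 1.06 in treated rats. S100a8 and S100a9, which form the calprotectin complex, had differences of 0.50 (limma adjusted p = 0.17) and 0.43 (adjusted p = 0.17). Camp and Csf3r had 0.19 (adjusted p = 0.44) and 0.23 (adjusted p = 0.66). Elane and Ltf were well above background on 0 arrays, and Cxcr2 on 1 corn oil and 2 treated arrays. The part of these markers in the Lcn2 difference was not tested.

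Lbp encodes lipopolysaccharide-binding protein, which passes bacterial lipopolysaccharide to CD14. Its signal was 6.35, 5.50 and 5.79 in the corn oil rats and 6.11, 7.07 and 6.17 in the treated rats. The ranges overlapped, and the difference was 0.13 (SE 0.10, interval from -0.12 to 0.39, limma adjusted p = 0.46). Spike-in scaling, where 44.8% of all features passed, raised it to 0.62 (limma adjusted p = 0.030).

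Orm1 encodes alpha-1-acid glycoprotein, a drug-binding plasma protein. Its signal was 108, 126 and 73.8 in the corn oil rats and 99.8, 160.2 and 122 in the treated rats. It had the widest interval of the 10 genes, from -0.29 to 0.93 around a difference of 0.32 (SE 0.25, limma adjusted p = 0.46). On slide 1 alone the difference was -0.0043, since treated rat 1 lay inside the corn oil range.

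The same animals stood at the ends of their groups across most of the 10 genes. Corn oil rat 1 was the highest of its group in 8 of 10 genes (Lcn2 and Orm1 were the exceptions), against 37.2% of all features, and corn oil rat 3 was the lowest in 7, against 33.4%. Treated rat 1, the treated animal on slide 1, was the lowest of its group in 8 of 10, against 38.6%, and treated rat 2 the highest in 8, against 27.0%. Among the treated rats, slide and animal cannot be told apart. The 75th percentile that divides every level also differed between arrays. In corn oil rats 1, 2 and 3 it was 670.1, 729 and 758, and in treated rats 1, 2 and 3 it was 825, 823 and 747. Its part in the order of the animals was not tested. Without corn oil rat 1 the median difference of the 10 genes was -0.16, and on slide 1 alone it was -0.33.

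**Figure D3:**
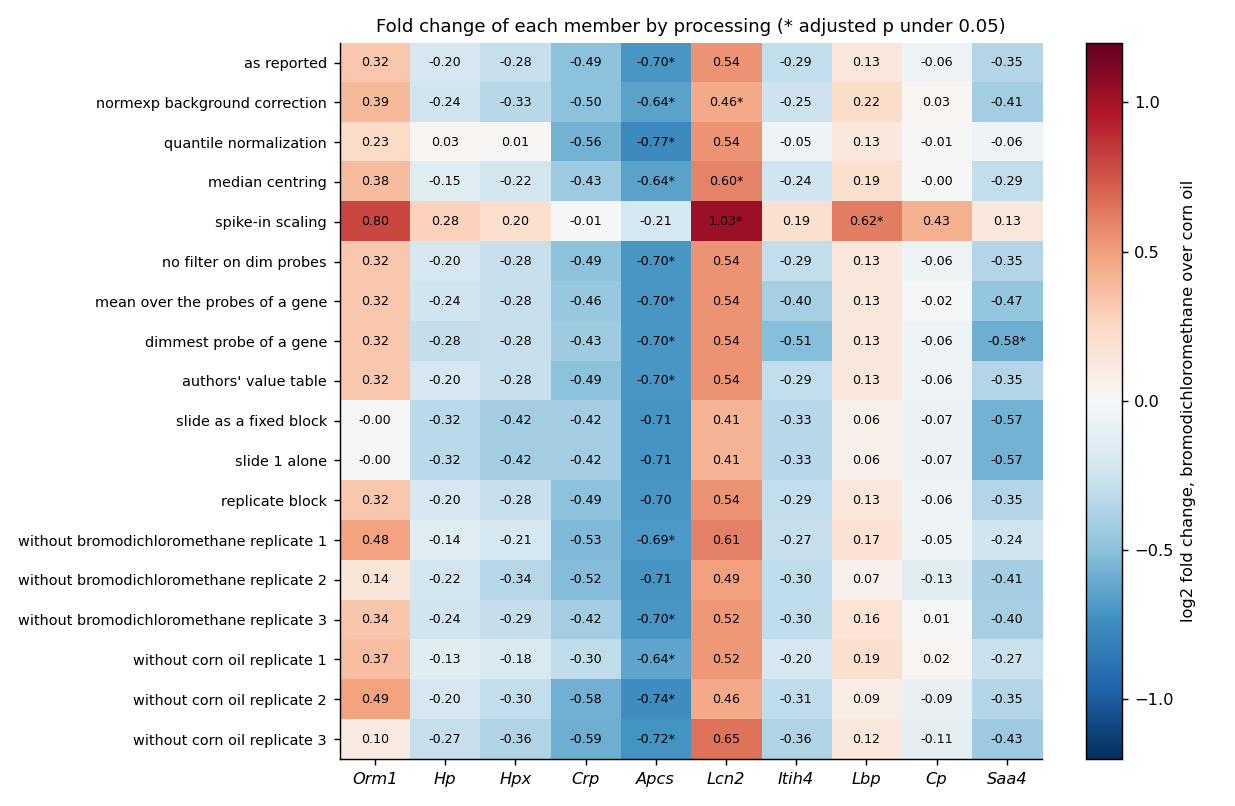
Log2 difference between treated and corn oil rats of each of the 10 genes (columns) under each processing setting (from top to bottom, the reported one first), as colour and as a printed value, with an asterisk for an adjusted p under 0.05. Apcs and Crp stayed below 0 and Lcn2 and Lbp above 0 in every setting drawn, while Cp, Hp, Hpx, Itih4, Saa4 and Orm1 each changed sign in at least 1.

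The list of other positive acute phase proteins, a class that rises in the response, held 23 measured genes. Whether each of them rises in rats was not tested. Of these 7 passed as lower, against 3.41% of all features, 15 did not pass, and 1, Tfpi2, had an adjusted p under 0.05 and a higher fitted value. The median was -0.29, and 12 of 23 were lower without overlap, against 16.0% of all features. A2m, the broad protease inhibitor alpha-2-macroglobulin and a major acute phase protein of the rat, fell most. Its signal was 9.71, 6.65 and 6.73 in the corn oil rats and 0.732, 2.70 and 1.72 in the treated rats, 5.03-fold lower (difference -2.33, SE 0.47, limma adjusted p = 0.036). Fgl1, a hepatocyte-secreted fibrinogen-like protein, was at 112, 94.8 and 63.1 against 35.3, 43.3 and 32.4 (difference -1.26, SE 0.23, adjusted p = 0.029). Both genes had treated levels below every corn oil rat.

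The other 5 that fell were the complement regulator C4bpa (-0.62, adjusted p = 0.030), the alpha-2-macroglobulin relative Pzp (-0.55, 0.043), the elastase inhibitor Serpina1 (-0.50, 0.023), complement factor B, Cfb (-0.45, 0.037), and the heavy chain Itih3 (-0.43, 0.047). None of these 5 passed under spike-in scaling, where the differences were -0.14, -0.06, -0.02, 0.03 and 0.05 in that order (adjusted p from 0.51 to 0.93). Quantile normalization also ended the calls of Pzp (-0.37, adjusted p = 0.071), Serpina1 (-0.23, 0.15), Cfb (-0.24, 0.13) and Itih3 (-0.23, 0.11).

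Tfpi2, a protease inhibitor, was not well above background in the corn oil group. Set against the background floor it was at least 1.32-fold higher in treated rats. The fitted difference, without that floor, was 0.78 (limma adjusted p = 0.034). Tfpi2 entered the test only through the treated group, so that p is not read as a rise. With normexp background correction its difference was 0.07 (adjusted p = 0.69), below that bound, so the bound holds only for the processing reported. When 1 animal was left out, A2m passed only without treated rat 1 (adjusted p from 0.040 to 0.096 over the 6 fits), and Fgl1 (0.027 to 0.096) and C4bpa (0.048 to 0.092) only without corn oil rat 3. Pzp, Serpina1, Cfb, Itih3 and Tfpi2 passed in none of those fits, with adjusted p from 0.052 upwards.

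A further list held other inter-alpha-trypsin inhibitor heavy chains and Ambp, the bikunin precursor, which is not a heavy chain. Of its 5 genes 3 were measured and 2 passed, both lower, against 3.41% of all features. Itih1 was at 153, 150.5 and 134 in the corn oil rats and 92.8, 100.2 and 93.4 in the treated rats (difference -0.61, SE 0.09, limma adjusted p = 0.020), with no overlap. The other was Itih3, already counted among the other positive acute phase proteins above, and Ambp did not pass. Itih1 passed only without corn oil rat 3 when 1 animal was left out (adjusted p from 0.040 to 0.073), and under spike-in scaling it was -0.13 (adjusted p = 0.53).

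Negative acute phase proteins are those known to fall in the response. Of 11 measured genes, 0 passed the limma test in either direction, against 9.36% of all features. At an unadjusted p under 0.05 there were 5, against 27.5%. Without overlap, 5 of the 11 were lower, against 16.0% of all features, and 0 were higher. The median of the 11 genes was -0.25, close to that of the 10 members. The smallest p-values belonged to Serpina6, the corticosteroid-binding globulin (-0.50, adjusted p = 0.12), and coagulation factor F12 (-0.25, adjusted p = 0.12).

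**Figure D4:**
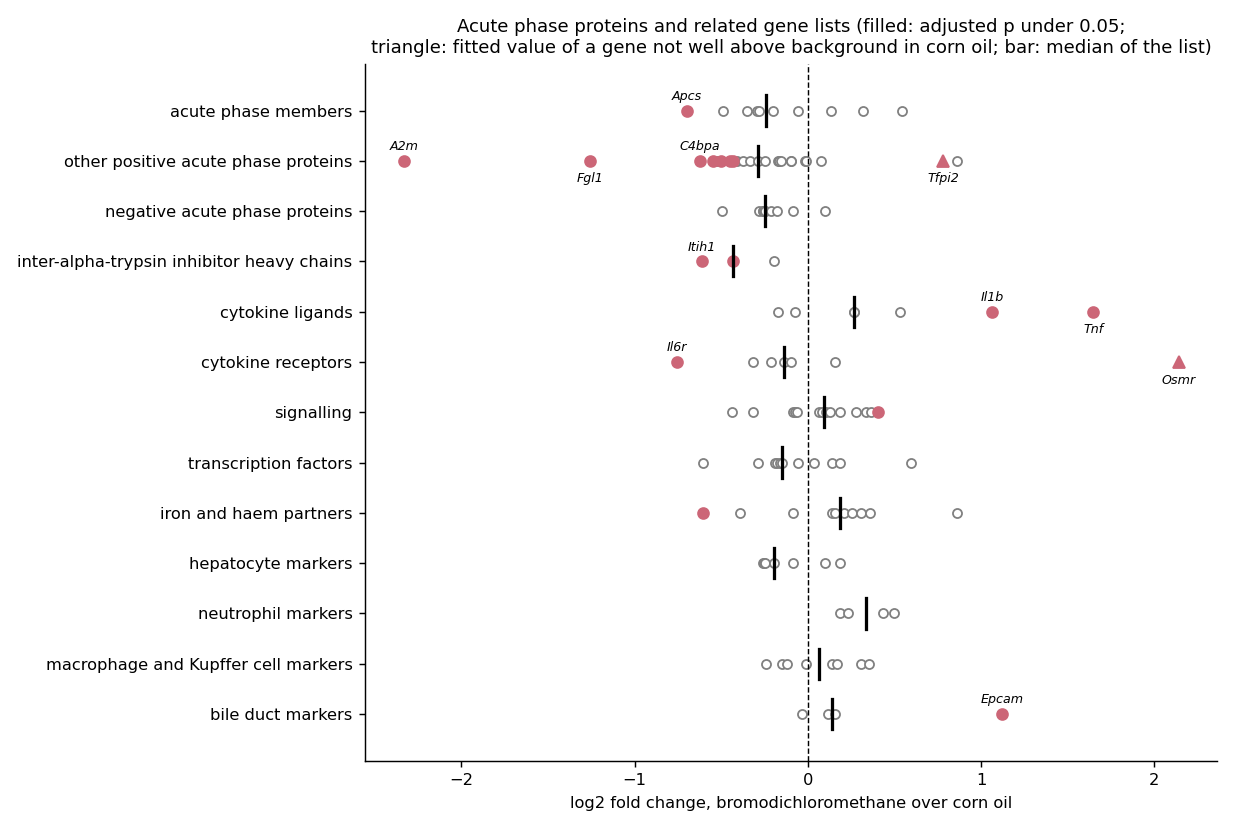
Log2 difference between treated and corn oil rats (horizontal axis) for every measured gene of each list, with filled points for genes past an adjusted p of 0.05, triangles for such genes not well above background in corn oil rats, and a bar at the list's median. Medians were -0.24 for the 10 acute phase genes, -0.29 for the other positive and -0.25 for the negative acute phase proteins, all relative to the 75th percentile; spike-in scaling moved the median of all features up to 0.48.

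Upstream of these genes, 2 of the 7 measured cytokine ligands rose, against 5.96% of all features. Il1b, interleukin 1 beta, was at 1.23, 1.102 and 1.52 in the corn oil rats and 3.01, 2.31 and 2.71 in the treated rats, 2.09-fold higher (difference 1.06, SE 0.16, limma adjusted p = 0.019). Tnf, tumour necrosis factor, was at 0.207, 0.291 and 0.279 against 1.08, 0.877 and 0.543, 3.13-fold higher (difference 1.65, SE 0.28, adjusted p = 0.023). Neither gene's groups overlapped. The probes for Il6 and Il22 were well above background on 0 of 6 arrays. When 1 animal was left out, Il1b passed only without corn oil rat 3 (adjusted p from 0.031 to 0.065) and Tnf only without treated rat 3 (0.023 to 0.089).

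Of 7 measured receptors, 1 fell, against 3.41% of all features, and 1, Osmr, had an adjusted p under 0.05 and a higher fitted value. Il6r, the ligand-binding chain of the interleukin 6 receptor, was at 7.22, 9.79 and 7.39 in the corn oil rats and 4.82, 4.37 and 5.14 in the treated rats. It was 1.69-fold lower, with no overlap (difference -0.76, SE 0.15, limma adjusted p = 0.032), and under spike-in scaling the difference was -0.27 (adjusted p = 0.23). Osmr, the oncostatin M receptor chain, was not well above background in the corn oil group. Set against the background floor it was at least 2.07-fold higher. The fitted difference, without that floor, was 2.14 (limma adjusted p = 0.028). Osmr too entered the test only through the treated group, so that p is not read as a rise. With normexp background correction the difference was 0.52 (adjusted p = 0.014), below that bound, so the bound holds only for the processing reported. Il6r passed in none of the 6 fits that left out 1 animal (adjusted p from 0.054 to 0.11), and Osmr only without corn oil rat 3 (0.016 to 0.099).

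Inside the cell, 1 of 14 measured signalling genes passed, against 9.36% of all features: Irak1, a kinase of the interleukin 1 receptor pathway, was higher (0.40, SE 0.09, limma adjusted p = 0.047), in none of the fits without 1 animal (0.087 to 0.13). Of 11 hepatocyte transcription factors that act on acute phase genes, 0 passed the limma test, against 9.36% of all features. An unadjusted p under 0.05 was found for 3, against 27.5%. The smallest p-values were those of Cebpb, a C/EBP factor (-0.61, adjusted p = 0.15), and Nr3c1, the glucocorticoid receptor (-0.29, adjusted p = 0.18).

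Among 10 partners of the iron and haem carriers, 1 passed, against 9.36% of all features. Slc22a17, a receptor for lipocalin 2, was at 13.0, 12.7 and 11.8 in the corn oil rats and 7.98, 7.76 and 8.98 in the treated rats. It was 1.52-fold lower, with no overlap (difference -0.61, SE 0.10, limma adjusted p = 0.021), while its ligand Lcn2 had the difference of 0.54 given above. Under spike-in scaling Slc22a17 was at -0.12 (adjusted p = 0.53) and Lcn2 at 1.03. Slc22a17 passed without corn oil rat 3 or without treated rat 3 and in none of the other fits that left out 1 animal (adjusted p from 0.046 to 0.084).

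Markers of the labelled tissue were present: all 7 hepatocyte markers were measured. The limma test was passed by 0, against 9.36% of all features, and 2 had an unadjusted p under 0.05, against 27.5%. The summed normalised signal of the 7 was 3459.9 to 3895 in corn oil rats and 3075 to 3493 in treated rats. Alb, albumin, and Ttr, transthyretin, had the smallest p-values, with differences of -0.25 (limma adjusted p = 0.16) and -0.26 (adjusted p = 0.17). Of the 7 markers, 5 lay below 0, while Hnf4a (0.19) and Apoa1 (0.10) lay above 0. Lower without overlap were 4 of the 7, against 16.0% of all features. The median of the 7 was -0.20, beside -0.24 over the 10 acute phase genes. Of 8 macrophage and Kupffer cell markers, 0 passed the limma test and 1 had an unadjusted p under 0.05. The shares of all features were 9.36% and 27.5%. The summed signal of the 8 was 111 to 148 in corn oil rats and 101 to 134 in treated rats. Differences were above 0 for 4 markers and below 0 for 4, with a median of 0.07. The smallest p-values were those of Cd68 (0.31, limma adjusted p = 0.16) and Cd5l (0.36, adjusted p = 0.20). Clec4f lay at -0.24 and Csf1r at -0.15. Of 4 measured bile duct markers, 1 rose, against 5.96% of all features: Epcam, an epithelial adhesion molecule (1.12, limma adjusted p = 0.021). The keratins Krt7 and Krt19 and the chloride channel Cftr had differences of 0.12, 0.16 and -0.03 that did not pass. The summed signal was 1.35 to 1.66 and 2.37 to 3.08, and within it the mean of Epcam was 1.05 and 2.27. Epcam passed in 3 of the 6 fits that left out 1 animal (adjusted p from 0.040 to 0.083). The part of cell type markers in the acute phase values was not tested.

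Besides Apcs, 16 listed genes had an adjusted p under 0.05. With slide as a block all 16 had the same direction. That estimate sets treated rat 1 against the corn oil rats, arrays that also served to pick the 16. The shared direction is therefore not a separate check. A2m passed with slide as a block, with a difference of -3.37 (limma adjusted p = 0.030) in place of -2.33. Treated rat 1 was its lowest treated animal, and without that rat the A2m difference was -1.81. The other 15 had adjusted p from 0.067 to 0.15 there, with differences such as 1.24 for Il1b, 2.08 for Tnf, -0.73 for Pzp and 0.91 for Epcam. Without the filter on dim probes, which raised the number of features tested to 45862, the 16 had adjusted p from 0.054 to 0.087.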

How the data were processed

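Total RNA from the livers of 6 rats was labelled with Cy3 and read on 1-colour Agilent arrays. The deposited scanner files hold spot intensity, which Feature Extraction 10.7 background-subtracted per the file headers and the submitters' processing notes, without scaling between arrays. A deposited value table holds a ratio: for at least 96.4% of probes it lay within 1% of processed signal over the array's 75th percentile. It served only as an alternative.

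Processed signals were taken to log2 and each array's 75th percentile over 61657 non-control probes was subtracted. Probes marked as outliers (27) were removed, and a probe was kept when well above background on all 3 arrays of a group. The brightest probe stood for a gene, leaving 28995 features. Groups were compared in limma 3.58.1 (R 4.3.3), lmFit and eBayes, as a two-sided test whose p-values were adjusted (Benjamini-Hochberg) across the whole table. The number of arrays limits the precision. For a group not above background the fold is a lower bound for the processed signals used. The brighter group's mean was set against a floor. On each dim array this floor was the faintest signal that counted as well above background, or the probe's own where higher. Unversioned accessions were named through RefSeq transcripts of GRCr8, which gave a symbol to 27460 probes (44.5%); no coordinates were converted. Promoters came from a RefSeq table.

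The 10 members, 12 further lists and the motifs were chosen with earlier results of these data known. All members were named, every listed gene past the threshold, and the 2 with the smallest p in a list without any. Alternatives were background correction, normalization, scaling, filter, probe choice, slide, replicate number and leaving out each animal. The normexp alternative used median spot signals (the mean column planned was not used here), and the dimmest probe of a gene was added after seeing the data. The fit was tested on simulated data.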

Additional observations from a re-analysis of the deposited data

How the results depend on the processing

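Apcs was lower under all 17 alternatives and passed in 12. It missed the threshold with slide as a block (-0.71), with spike-in scaling (-0.21) and without treated rat 2. Replicate number as a block also ended the call (-0.70, limma adjusted p = 0.063). Without 1 animal its difference ranged from -0.74 to -0.64. Several settings could not move it. Apcs has 1 probe, so probe choice and the filter left it at -0.70, as did the replicate block. Slide 1 alone, with 1 treated array, gave the same estimate as the slide block (-0.71). The 17 are therefore not separate checks. Replicate numbers shared between groups were not treated as pairs, since deviations of same-numbered rats correlated at only 0.019 to 0.117, although each of the 6 rats correlated best with its own number. The replicate block left 0 of the 10 genes past the threshold (3 at an unadjusted p under 0.05) and 353 features in all, and gave the 16 listed genes past the test adjusted p from 0.054 to 0.12. The count of members in limma was 2 with median centring and normexp (Apcs, Lcn2), with spike-in scaling (Lbp, Lcn2) and with the dimmest probe (Apcs, Saa4), 0 with slide as a block and on slide 1 (2 at an unadjusted p under 0.05 in each), and 0 to 1 without 1 animal, with 0 only without treated rat 2 (3 unadjusted). The count of all features was 609 with no filter, 350 with slide as a block, 120 on slide 1, 12996 with spike-in scaling and 335 to 1232 without 1 animal. Of all calls, 63.6% were higher in the setting used, 74.2% with median centring and 97.6% with spike-in scaling, which rests on 8 probes. That scaling called 44.8% of all features, so its 2 member calls are not read as a result about the members. The members' median was 0.0021 with quantile normalization, -0.33 with slide as a block or slide 1 alone, 0.24 with spike-in scaling, and -0.32 to -0.16 without 1 animal. Signs changed for Cp (normexp 0.026, spike-in 0.43, and -0.13 to 0.024 without 1 animal, above 0 without corn oil rat 1 or treated rat 3), Hp (quantile 0.027, spike-in 0.28), Hpx (quantile 0.013, spike-in 0.20), Itih4 and Saa4 (spike-in 0.19 and 0.13) and Orm1 (slide block and slide 1, -0.0043). The cause was not tested.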
